A study of Mus musculus with 5 samples.

Results

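Transcripts of 9 genes of caveolae and of transcytosis control were measured in brain microvascular fragments: the caveolins Cav1 and Cav2, the cavins Ptrf (Cavin1), Sdpr (Cavin2) and Prkcdbp (Cavin3), the ATPase Ehd2, the GTPase Dnm2, and the endothelial membrane proteins Mfsd2a and Plvap. They were chosen by symbol, through the NCBIM37 gene annotation, and make up 9 of 34615 symbols. All 9 had a mean of at least 1 FPKM (fragments per kilobase of exon and scaled to the number of mapped fragments) over the 5 mice, which was the minimum for testing. The libraries came from 3 wild-type (WT) and 2 heterozygous Ins2-AKITA mice, 1 library per mouse. All were male C57BL6 mice aged 26 to 38 weeks, and the WT mice were littermates of Ins2-AKITA mice. Ins2-AKITA mice carry a point mutation in 1 copy of the insulin 2 gene that is toxic to pancreatic beta cells, so that insulin is short and blood glucose rises. The fragments were captured with beads against the endothelial protein PECAM1, and they hold endothelial cells together with attached pericytes and astrocyte end-feet. The comparison asks whether long-lasting hyperglycemia goes along with other levels of these transcripts.

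Caveolae are flask-shaped pits of the plasma membrane. Caveolins sit in the inner leaflet, cavins form a coat around the pit, EHD2 holds the neck at the surface, and dynamin 2 can pinch vesicles off. In many peripheral vessels caveolae are abundant and carry plasma proteins across the endothelium. In brain capillaries such transport is kept low, and MFSD2A, a transporter of lipids carrying docosahexaenoic acid, is known to restrain caveolar transcytosis there. PLVAP forms the diaphragms of caveolae and fenestrae in peripheral endothelium and is low in endothelium with a mature blood-brain barrier, but is made by the fenestrated capillaries of the choroid plexus.

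Cav1 and Cav2 are neighbours on chromosome 6 in NCBIM37, both on the plus strand, with 17219 bases between the end of Cav2 and the start of Cav1. Their upstream sequences are shown with that of Mfsd2a. Cav1 and Cav2 were both highest in WT replicate 2 and lowest in WT replicate 1, but the mice between came in another order. Mfsd2a was highest in WT replicate 1. Each run is the 250 bases before the annotated start, taken from the RefSeq promoter table of GRCm38.p6 and matched exactly to NCBIM37, at chr6:17256085-17256334 (plus strand) for Cav1, chr6:17230935-17231184 (plus strand) for Cav2 and chr4:122638432-122638681 (minus strand) for Mfsd2a. Capitals mark motif matches on either strand.
Cav1: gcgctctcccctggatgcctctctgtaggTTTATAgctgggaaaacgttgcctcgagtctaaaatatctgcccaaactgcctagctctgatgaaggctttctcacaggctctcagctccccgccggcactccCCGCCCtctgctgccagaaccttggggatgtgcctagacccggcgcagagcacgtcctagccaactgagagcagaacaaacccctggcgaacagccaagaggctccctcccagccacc
Cav2: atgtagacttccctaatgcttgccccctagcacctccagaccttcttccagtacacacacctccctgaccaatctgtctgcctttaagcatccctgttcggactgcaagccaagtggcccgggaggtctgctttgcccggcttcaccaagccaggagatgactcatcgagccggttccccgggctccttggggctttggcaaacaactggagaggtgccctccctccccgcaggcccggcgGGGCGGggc
Mfsd2a: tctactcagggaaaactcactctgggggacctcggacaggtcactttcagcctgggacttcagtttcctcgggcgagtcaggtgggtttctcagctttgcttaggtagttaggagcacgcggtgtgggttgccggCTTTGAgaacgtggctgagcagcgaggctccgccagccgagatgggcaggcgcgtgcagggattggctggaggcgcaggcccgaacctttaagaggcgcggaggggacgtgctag
The motifs were searched on both strands: the GC box GGGCGG, the Kruppel-like factor core CACCC, the ETS motif CCGGAA, the TCF/LEF motif CTTTGA and the TATA box TATAAA. The Cav1 window held 1 GC box and 1 TATA box, both on the opposite strand, the Cav2 window held 1 GC box, and the Mfsd2a window held 1 TCF/LEF motif. Of 32536 promoter windows of this length, 33% held a GC box, 52.1% the CACCC core, 12.1% the ETS motif, 13.9% the TCF/LEF motif and 12.3% the TATA box. GC content was 59.6% for Cav1, 62% for Cav2 and 61.6% for Mfsd2a. These matches describe letters only.

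The estimated depth was 1116720 to 2819268 fragments per mouse, and WT replicate 3 (WT 3) was the deepest. All 12 endothelial markers were present, and 10 of 12 were lower in Ins2-AKITA mice by the sign of the log2(FPKM + 1) fit, which all counts of direction use. Of the 12 markers, 3 had an unadjusted limma p under 0.05, beside 4.46% of all genes tested, and 0 passed after adjustment. The summed FPKM of the 12 markers was 535 to 874 in WT and 434 to 537 in Ins2-AKITA mice. All 6 smooth muscle markers were lower on that scale (249 to 305 against 162 to 215 summed FPKM). So were 6 of 9 pericyte markers (218 to 270 against 192 to 244) and 5 of 7 arterial markers (71.4 to 101 against 61 to 68.7). Of the venous markers 5 of 6 were lower (111 to 151 against 101 to 107). These counts stand beside 53.5% of all genes tested that were lower. All 6 astrocyte markers (2081 to 2885 against 3263 to 3861) and all 5 microglia markers (42.1 to 82.5 against 70.4 to 75.5) were higher on that scale. The sums of oligodendrocyte (1093 to 1676 against 1373 to 1496), neuron (464 to 497 against 431 to 529) and fibroblast markers (28.7 to 33 against 31.3 to 36.2) overlapped between genotypes. So did the sums of endothelial, pericyte and microglia markers given above, and both Ins2-AKITA sums of microglia markers lay inside the WT range. Caveolae are abundant in adipocytes, and the adipocyte markers Adipoq and Plin1 were at 0 in all mice, while Lep was at 0.25 FPKM in WT 2 alone. In bulk RNA, fewer cells of a type and less RNA per cell cannot be told apart. The part of these shifts in the values that follow was not tested.

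All 9 transcripts were above 0 in every mouse, and none passed the test between genotypes. Ordered by mean FPKM over the 5 mice, which is a level per length of exon, Dnm2 (68.4) and Ptrf (65.1) came first, followed by Cav1 (27.5), Mfsd2a (23.1), Prkcdbp (21.5), Sdpr (17.1), Cav2 (16.5), Ehd2 (14.7) and Plvap (7.62). Dnm2 and Ptrf stood at the 95.3 and 95 percentiles of protein-coding genes and Plvap, the lowest, at the 59.7 percentile. The step from Ptrf to Cav1 was the only one between neighbours seen in all 5 mice, with a mean log2 ratio of 1.29 ± 0.28 (SD, n = 5 mice). Plvap was below Ehd2 in 4 of 5 mice, with a mean log2 ratio of 0.96 ± 0.80 (SD, n = 5 mice). Each of the other neighbours in the order was the higher one in 2 to 4 of the 5 mice, so their order did not hold beyond the spread.

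**Figure D1:**
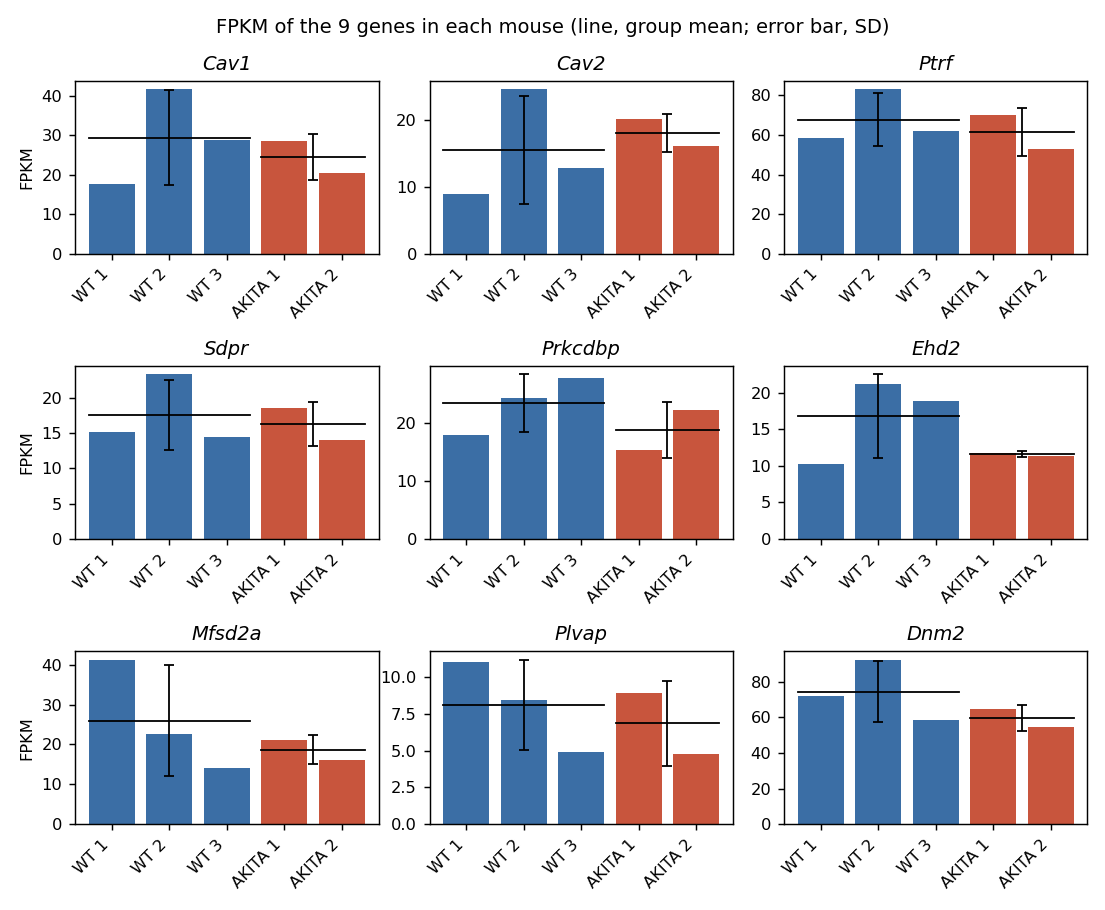
FPKM (vertical axis, linear from 0, own scale per panel) of each of the 9 genes in the 3 WT and 2 Ins2-AKITA mice, 1 bar per mouse, with the group mean as a line and the SD as an error bar. WT 2 is the highest mouse for 6 genes, WT 1 for Mfsd2a and Plvap, and the genotypes overlap in every panel.

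Cav1, the caveolin without which caveolae do not form in endothelium, lies at chr6:17256335-17291452 (ENSMUSG00000007655, 3434 exon bases). Its FPKM was 17.7, 41.7 and 28.9 in WT 1, WT 2 and WT 3 and 28.7 and 20.5 in Ins2-AKITA 1 and Ins2-AKITA 2. Both Ins2-AKITA values fell inside the WT range, whose ends differed more than the genotypes did. Mean FPKM was 29.4 ± 12 (SD, n = 3) in WT and 24.6 ± 5.82 (SD, n = 2) in Ins2-AKITA mice. The log2 fold change, here always Ins2-AKITA minus WT on the log2(FPKM + 1) scale, was -0.19 (SE 0.376, limma adjusted p = 0.954).

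Cav2, which forms mixed oligomers with Cav1, lies at chr6:17231185-17239115 (ENSMUSG00000000058). It measured 8.97, 24.6 and 12.9 FPKM in WT against 20.1 and 16.1 FPKM in Ins2-AKITA mice. WT 1 was again lowest and WT 2 highest, with both Ins2-AKITA mice between them. Cav2 was the only 1 of the 9 genes with a higher mean in Ins2-AKITA mice (18.1 ± 2.81, n = 2, against 15.5 ± 8.11, n = 3), with a log2 fold change of 0.32 (SE 0.413, limma adjusted p = 0.918). A gene model on the opposite strand, Gm15581, annotated as a processed transcript, spans both caveolins. It was at 0 FPKM and shares 0 exon bases with them.

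Of the 3 cavins, Ptrf, the coat protein that caveola formation requires, was the most abundant (ENSMUSG00000004044, chr11:100818047-100832201). Its FPKM was 58.5, 83.0 and 61.8 in WT, against 69.8 and 52.7 in Ins2-AKITA mice, and its log2 fold change was -0.14 (SE 0.237, limma adjusted p = 0.939). Sdpr, a cavin known to shape the caveolar membrane (ENSMUSG00000045954, chr1:51345970-51359803), measured 15.1, 23.3 and 14.4 FPKM in WT against 18.5 and 14.0 FPKM in Ins2-AKITA mice. For both genes WT 2 was highest and Ins2-AKITA 2 lowest, while Ins2-AKITA 1 was second. The log2 fold change of Sdpr was -0.089 (SE 0.286, limma adjusted p = 0.968).

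Prkcdbp, the cavin named for its binding to protein kinase C delta (ENSMUSG00000037060, chr7:112629121-112630711), did not share that order. It measured 18.0, 24.3 and 27.8 FPKM in WT against 15.3 and 22.2 FPKM in Ins2-AKITA mice, with WT 3 highest and Ins2-AKITA 1 lowest. The log2 fold change was -0.30 (SE 0.276, limma adjusted p = 0.902). The gene is short, with 1035 exon bases, and its values correspond to 17, 26, 64, 14 and 23 fragments in the order of mice above, whose 95% Poisson intervals all overlap one another. The Sdpr values correspond to 50, 86, 115, 59 and 51 fragments, and there the intervals of WT 2 (18.5 to 28.6 FPKM) and WT 3 (11.9 to 17.3 FPKM) did not overlap. Such intervals cover counting error only.

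Ehd2, at the caveolar neck, is encoded at chr7:16532326-16552916 (ENSMUSG00000074364). It measured 10.3, 21.1 and 18.8 FPKM in WT against 11.8 and 11.3 FPKM in Ins2-AKITA mice. Both Ins2-AKITA mice lay close together, below WT 2 and WT 3 but above WT 1. Mean FPKM was 16.8 ± 5.67 (SD, n = 3) in WT against 11.6 ± 0.379 (SD, n = 2), and the log2 fold change was -0.44 (SE 0.335, 95% interval -1.25 to 0.37, limma adjusted p = 0.9). It was the most negative estimate of the 9 with all mice, but with a mouse left out only without WT 1. Mfsd2a was lower than Ehd2 without WT 2, WT 3 or Ins2-AKITA 1, and Prkcdbp without WT 2 or Ins2-AKITA 2. Plvap was lower than Ehd2 without WT 3 or Ins2-AKITA 1, and Dnm2 without WT 3.

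Dnm2 is the dynamin found in nearly all cell types and also serves clathrin-coated pits (ENSMUSG00000033335, chr9:21229352-21312203). Its FPKM was 72.1, 92.4 and 58.5 in WT, against 64.7 and 54.4 in Ins2-AKITA mice. The Ins2-AKITA 1 value lay inside the WT range and the Ins2-AKITA 2 value under it, and the log2 fold change was -0.30 (SE 0.242, limma adjusted p = 0.902). Tmed1, on the opposite strand, shares 337 exon bases (6.33% of the Dnm2 exons) and measured 5.31 to 7.78 FPKM. Whether counting used strand is not given in the sources used here.

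Mfsd2a, at chr4:122624093-122638431 (ENSMUSG00000028655), varied widely among the WT mice. Its FPKM was 41.3, 22.5 and 14.2 in WT, against 21.2 and 16.2 in Ins2-AKITA mice. WT 1, the lowest mouse for Cav1, Cav2 and Ehd2, was the highest for Mfsd2a, and both Ins2-AKITA mice lay between WT 2 and WT 3. Mean FPKM was 26.0 ± 13.9 (SD, n = 3) in WT against 18.7 ± 3.56 (SD, n = 2), with a log2 fold change of -0.34 (SE 0.435, 95% interval -1.39 to 0.71, limma adjusted p = 0.918). Without WT 1 the log2 fold change was 0.046, and without WT 3 it was -0.69.

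Plvap, the least abundant of the 9 (ENSMUSG00000034845, chr8:74021653-74035668), measured 11, 8.46 and 4.91 FPKM in WT against 8.92 and 4.78 FPKM in Ins2-AKITA mice. In each genotype 1 mouse was near 5 FPKM and at least 1 was above 8 FPKM. The log2 fold change was -0.21 (SE 0.414, limma adjusted p = 0.951), and with single mice left out it ran from -0.60 to 0.18, with 0.019 without WT 1. Its values rest on 23, 20, 25, 18 and 11 fragments, whose 95% Poisson intervals all overlap one another, from 2.4 to 8.62 FPKM in Ins2-AKITA 2 up to 6.97 to 16.5 FPKM in WT 1.

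**Figure D2:**
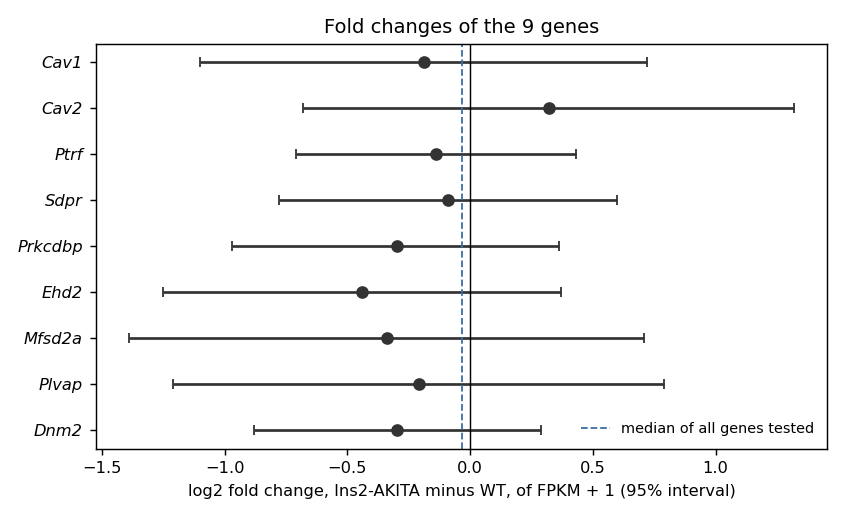
Log2 fold change (Ins2-AKITA minus WT, log2(FPKM + 1) scale) of each gene from limma, with points for the estimate, bars for the 95% interval and a dashed line at the median of all genes tested. Every interval crosses 0, and the estimates run from -0.44 (Ehd2) to 0.32 (Cav2).

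Across the table, limma with Benjamini-Hochberg adjustment called 0 of the 9 genes at an adjusted p of 0.05. The same rule called 4 of 16286 genes (0.0246%), all lower, so few calls were made anywhere. An unadjusted limma p under 0.05 was seen for 0 of the 9, beside 4.46% of all genes. None of the 9 had groups that did not overlap, where 10.3% of all genes had both Ins2-AKITA mice below all WT mice and 9.24% had both above. With 3 mice against 2, an exact permutation test cannot give a p below 0.1. The log2 fold change was negative for 8 of 9 genes, with a median of -0.21, beside 53.5% of all genes and a median of -0.035. The sign of these fold changes depended on scaling: after centring on the 12 endothelial markers the median of the 9 was 0.21 (0.38 over all genes) and Ehd2 alone stayed below 0, and as TPM (scaled to the FPKM sum of each mouse) the median was 1.25 (1.07 over all genes). None was called under either scaling. Leaving out Ins2-AKITA 2 gave a median of 0.048 for the 9 genes.

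The genes did not vary alike among the mice. Cav1 and Ehd2 followed the same order of mice, WT 2 highest, then WT 3, Ins2-AKITA 1, Ins2-AKITA 2 and WT 1. Mfsd2a and Plvap were highest in WT 1, and Prkcdbp in WT 3. Likeness was measured as the root mean square difference of log2(FPKM + 1) profiles, each centred on its mean over the 5 mice, where a small value is a like profile. Of the 36 pairs among the 9 genes, Ptrf and Sdpr were nearest (0.08), followed by Sdpr and Dnm2 (0.14) and Ptrf and Dnm2 (0.15). Cav1 and Ehd2 differed by 0.21, Cav1 and Cav2 by 0.28 and Mfsd2a and Plvap by 0.23, whereas Cav1 and Mfsd2a differed by 0.77 and Cav2 and Mfsd2a, the farthest pair, by 0.83.

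Among 126 genes of the lists, the nearest to Cav1 were Rab5c, an early endosome GTPase (0.10), Tek, the endothelial angiopoietin receptor (0.10), and Ehd4, an endosomal relative of Ehd2 (0.14), beside a median of 0.46. Tek measured 18, 36.6 and 28.2 FPKM in WT against 25.2 and 21.3 FPKM in Ins2-AKITA mice. Rab5c measured 60.7, 121, 79.7, 87.6 and 64.4 FPKM in the same order of mice, with WT 1 lowest and WT 2 highest for both genes, as for Cav1.

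The nearest to Mfsd2a were Kcnj13, a potassium channel of choroid plexus epithelium (0.12), Kcnj8, a potassium channel of pericytes (0.23), and Plvap (0.23), beside a median of 0.57. Kcnj13 measured 19.6, 10.1 and 6.73 FPKM in WT against 8.49 and 5.97 FPKM in Ins2-AKITA mice, with WT 1 well above the other 4. For Kcnj8 the values were 9.16, 4.63, 2.33, 2.71 and 1.98 FPKM. The nearest to Plvap were Clic6, another choroid plexus marker (0.21), Mfsd2a (0.23) and Lrp1, a large receptor of the low-density lipoprotein receptor family (0.24), beside a median of 0.49. These likenesses describe 5 libraries and carry no test.

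By their summed FPKM, choroid plexus markers were high in 3 mice and low in 2, and Plvap followed the same split. The summed FPKM of the 5 markers was 1847, 2069 and 702 in WT, against 1850 and 995 in Ins2-AKITA mice, nearly all of it from Ttr, the transthyretin gene (1785, 1993, 669, 1790 and 960). Plvap was above 8 FPKM in the 3 mice with the high sums (WT 1, WT 2 and Ins2-AKITA 1) and below 5 FPKM in WT 3 and Ins2-AKITA 2. Folr1, a folate receptor, measured 19.2, 38.6, 14.2, 31.3 and 14.5 FPKM and Kl, the klotho gene, 10.9, 16.3, 6.39, 12 and 6.84 FPKM. The split was weaker for Kcnj13, which stood well above the rest in WT 1 alone, and for Clic6. Clic6 measured 12.1, 10.7, 5.96, 8.54 and 7.71 FPKM. All 5 markers had a negative log2 fold change, with a median log2 fold change of -0.17 and 0 called. The part of choroid plexus RNA in the Plvap and Mfsd2a values was not tested.

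**Figure D3:**
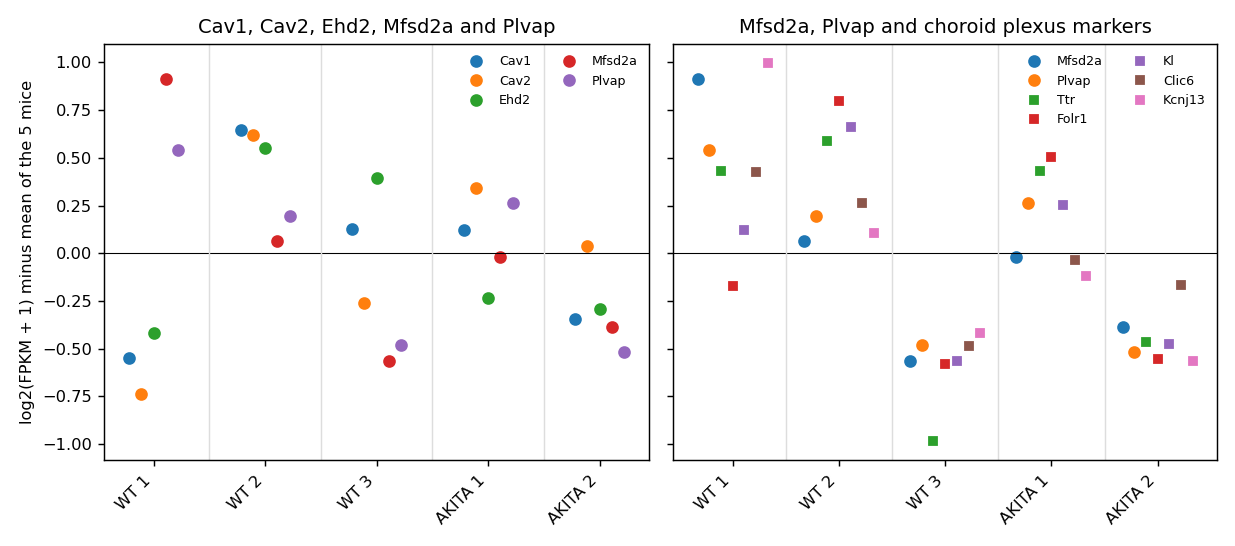
log2(FPKM + 1) minus the mean of the 5 mice (vertical axis) for each mouse, 1 point per gene, for Cav1, Cav2, Ehd2, Mfsd2a and Plvap (left) and for Mfsd2a and Plvap (circles) with 5 choroid plexus markers (squares, right). In WT 1 Mfsd2a and Plvap lie above 0 and Cav1, Cav2 and Ehd2 below it, and in WT 3 and Ins2-AKITA 2 every marker lies below 0 together with Mfsd2a and Plvap.

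Ratios within a mouse do not depend on how that mouse was scaled. Cav2 per Cav1 was 0.508, 0.588 and 0.446 in WT, against 0.699 and 0.786 in Ins2-AKITA mice. Both Ins2-AKITA mice lay above all WT mice, with a difference of mean log2 ratios of 0.54, at the smallest p the exact two-sided permutation test allows (p = 0.1, 0.8 after Benjamini-Hochberg adjustment over 8 ratios). It was the only 1 of 8 ratios to Cav1 whose groups did not overlap, beside 8.01% of all genes in either direction, and across the alternatives the difference ran from 0.44 to 0.64.

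The other ratios to Cav1 overlapped between genotypes. WT 1 stood apart in several: Mfsd2a per Cav1 was 2.34 in WT 1 and 0.539 and 0.492 in the other WT mice, with 0.737 and 0.788 in Ins2-AKITA mice. The difference for Mfsd2a was -0.16 with all mice (exact permutation p = 1) and 0.57 without WT 1, and it ran from -0.56 to -0.11 without any other single mouse. Plvap per Cav1 was 0.623 in WT 1 and 0.17 to 0.31 in the other 4 mice. Ptrf per Cav1 was 3.31 in WT 1 and 1.99 to 2.57 elsewhere, and Dnm2 per Cav1 was 4.08 in WT 1 and 2.03 to 2.65 elsewhere. Ehd2 per Cav1 was 0.585, 0.505 and 0.653 in WT, against 0.411 and 0.55 in Ins2-AKITA mice, a difference of -0.28 (exact permutation p = 0.3) that was -0.07 without Ins2-AKITA 1 and -0.49 without Ins2-AKITA 2.

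**Figure D4:**
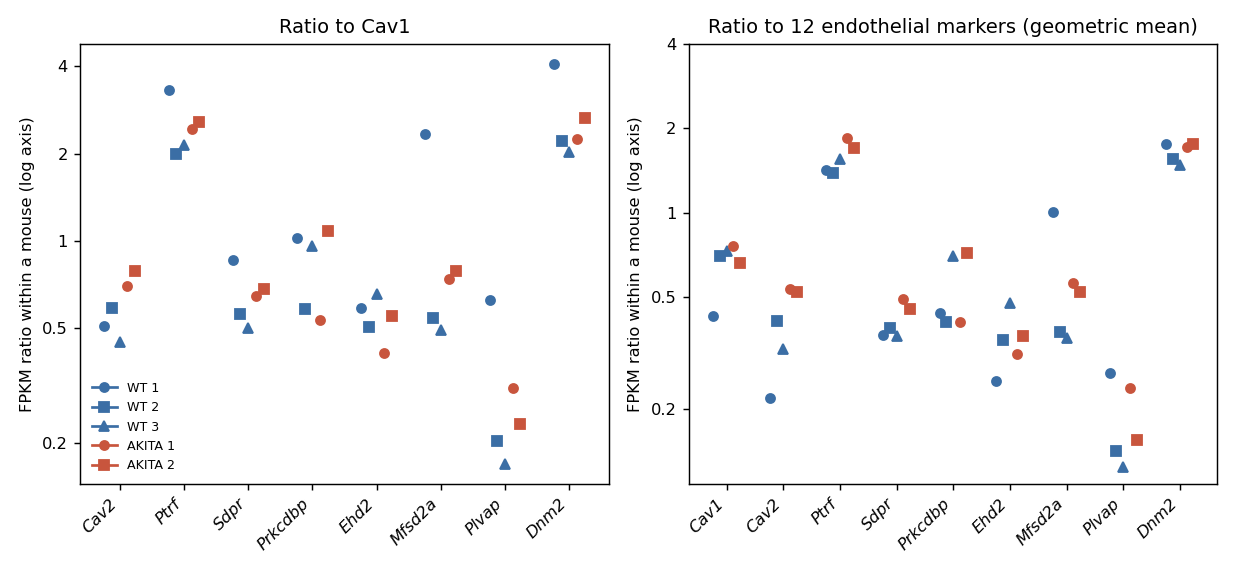
FPKM of each gene divided, within each mouse, by that of Cav1 (left) or by the geometric mean of 12 endothelial markers (right), on log axes, 1 symbol per mouse (WT blue, Ins2-AKITA red). Cav2 per Cav1 separates the genotypes on the left, and Cav2, Ptrf and Sdpr do so on the right.

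Relative to the endothelial markers, 3 of the 9 genes had both Ins2-AKITA mice above all WT mice. The geometric mean of the 12 markers was 41.1, 59.7 and 39.5 FPKM in WT against 37.7 and 30.9 FPKM in Ins2-AKITA mice, so the divisor itself was lower in both Ins2-AKITA mice (log2 difference -0.43, exact permutation p = 0.2). Cav2 per marker level was 0.218, 0.411 and 0.326 in WT, against 0.534 and 0.522 in Ins2-AKITA mice (difference 0.78, exact permutation p = 0.2, adjusted over 9 ratios 0.6). For Ptrf it was 1.42, 1.39 and 1.56 against 1.85 and 1.70 (difference 0.29, exact permutation p = 0.1, adjusted 0.45). For Sdpr it was 0.368, 0.39 and 0.364 against 0.491 and 0.454 (difference 0.34, exact permutation p = 0.1, adjusted 0.45). The count of 3 of 9 stands beside 25.7% of all genes measured the same way, and the other 6 ratios overlapped. Cav1 per marker level was 0.43, 0.699 and 0.73 in WT, against 0.763 and 0.663 in Ins2-AKITA mice, close to one another except in WT 1.

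The 4 lists of other genes of these pathways were taken through the same fit, with directions given for FPKM as deposited since TPM and endothelial centring shift all genes upward, and 0 of their 50 tested members (of 52) were called, 22 with a negative and 28 with a positive log2 fold change. Of 16 caveola-associated genes 15 were tested, with 8 lower, 7 higher and a median log2 fold change of -0.02. Both Ins2-AKITA mice lay above all WT mice for 2 of the 15 (Pacsin1 and Src) and below them for 2 (Pacsin2 and Ehd1), beside 9.24% and 10.3% of all genes. The lowest was Nos3, endothelial nitric oxide synthase, whose protein binds Cav1, at 10.1, 20.2 and 15.5 FPKM in WT against 13.4 and 8.56 FPKM in Ins2-AKITA mice (log2 fold change -0.42). The highest was Flot2, a flotillin of membrane microdomains, at 37.9, 41.4, 51.4, 48.5 and 61.0 FPKM in the same order (0.33). Both genes overlapped between genotypes. Cav3, the muscle caveolin, was at 0 in all mice and was not tested.

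Of the 15 clathrin coat genes, 5 had a negative and 10 a positive log2 fold change, with a median of 0.10. Both Ins2-AKITA mice lay above all WT mice for 5 of the 15 (Cltc, Ap2a2, Ap2b1, Ap2m1 and Ap2s1), beside 9.24% of all genes, and below them for 0. The summed FPKM of the list was 1035 to 1143 in WT against 1149 to 1340 in Ins2-AKITA mice. WT 1 (1143) and Ins2-AKITA 1 (1149) lay close together. Epn1 measured 359 FPKM in Ins2-AKITA 2, against 227 FPKM in Ins2-AKITA 1 and 196 to 247 FPKM in WT. How far the mix of cell types enters these values was not tested. Ap2b1, a subunit of the clathrin adaptor AP-2, was the highest. It was the only 1 of the 50 with an unadjusted limma p under 0.05, beside 4.46% of all genes. It measured 37.9, 38.5 and 45.8 FPKM in WT against 68.0 and 55.6 FPKM in Ins2-AKITA mice (log2 fold change 0.59, SE 0.197, limma adjusted p = 0.896). The lowest was Bin1, an amphiphysin that bends membranes, at 66.1, 70.0, 58.0, 59.7 and 50.2 FPKM (-0.23).

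Among 12 genes of endocytic sorting, 3 had a negative and 9 a positive log2 fold change, with a median of 0.17. Both Ins2-AKITA mice lay above all WT mice for 4 of the 12 (Rab8a, Rab11b, Vps35 and Snx1), beside the same 9.24%, and below them for 0, and the summed FPKM was 488 to 517 in WT against 545 to 589 in Ins2-AKITA mice. The part of astrocyte RNA, whose summed marker FPKM also lay higher in both Ins2-AKITA mice, was not tested. Among the single astrocyte markers, Aqp4, Gfap and Gja1 overlapped between genotypes. For Slc1a2 and Slc1a3 both Ins2-AKITA mice lay above all WT mice. Slc1a2 measured 1013, 1449 and 1507 FPKM in WT against 1897 and 2110 FPKM in Ins2-AKITA mice. The Slc1a3 values were 177, 219 and 237 FPKM against 250 and 337 FPKM. Aldoc was at 729 FPKM in both WT 3 and Ins2-AKITA 1. Rab8a, a GTPase of export to the plasma membrane, was the highest at 21.9, 11.2 and 24.6 FPKM in WT against 34.4 and 28.7 FPKM in Ins2-AKITA mice (log2 fold change 0.75, SE 0.355, limma adjusted p = 0.896). Vamp3, a vesicle fusion protein, was the lowest at 28.1, 14.4, 14.8, 14.3 and 18.0 FPKM (-0.17), with WT 1 apart from the rest.

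Of 9 cargo receptors for transcytosis, 8 were tested, 6 with a negative and 2 with a positive log2 fold change and a median of -0.19. Both Ins2-AKITA mice lay below all WT mice for 1 of the 8, beside 10.3% of all genes. This was Acvrl1, at 36.7, 35.6 and 43.7 FPKM in WT against 35 and 35 FPKM in Ins2-AKITA mice. Scarb1, the scavenger receptor for high-density lipoprotein, was the lowest at 35.9, 34.4 and 15.9 FPKM in WT against 20.1 and 13.0 FPKM in Ins2-AKITA mice (log2 fold change -0.71, limma adjusted p = 0.896), and WT 3 lay between the Ins2-AKITA mice. Fcgrt, the neonatal Fc receptor, was the highest at 11.9, 16.0, 27.9, 22.9 and 18.5 FPKM (0.22). Cd36, a fatty acid receptor, was at 0 in WT 1 and at 0.239 to 0.559 FPKM elsewhere, under the minimum for testing.

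**Figure D5:**
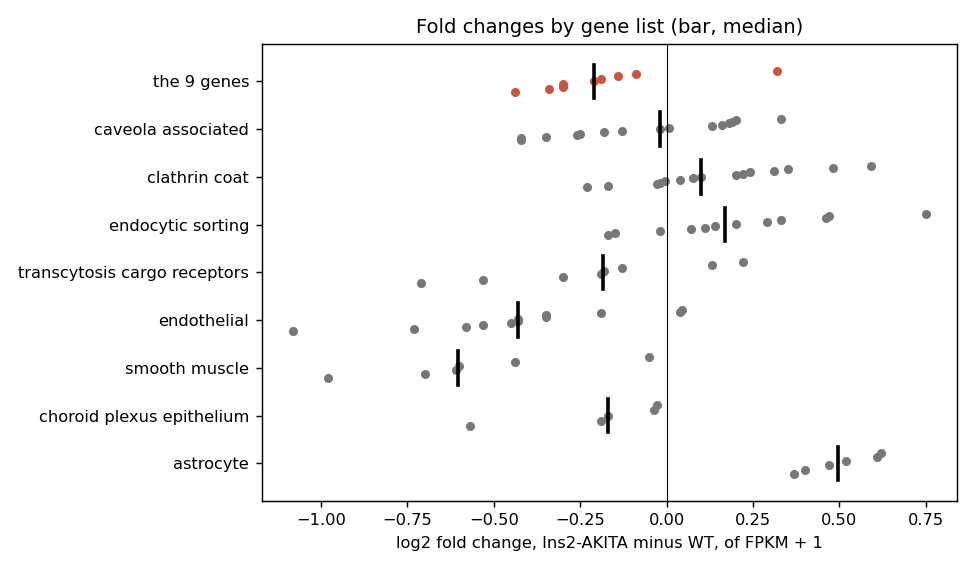
Log2 fold change (Ins2-AKITA minus WT, log2(FPKM + 1) scale) of single genes, 1 point each, for the 9 genes, the 4 pathway lists and 4 marker lists, with a bar at each list's median. On the deposited scale the median is -0.21 for the 9 genes, 0.10 for clathrin coat genes, -0.43 for endothelial, -0.60 for smooth muscle and 0.49 for astrocyte markers.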

How the data were processed

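The libraries hold RNA of microvascular fragments, 1 library for each of 3 WT and 2 Ins2-AKITA mice. Per the submitters' processing notes, NCBIM37, TopHat2 2.0.4, Picard 1.92 and Cufflinks 2.2.1 were used, after depletion of ribosomal RNA and stranded total RNA library preparation. The authors deposited FPKM values, 1 per Ensembl gene and mouse; the program that made them and the Ensembl release are not given in the sources used here. Division by length gives very high FPKM to small RNA genes, so protein-coding genes held 2.88% to 25.5% of the FPKM sum of a mouse, while their own sums were alike (362796 to 391008). Values were therefore not rescaled.

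Of 37982 identifiers, 37197 matched the GENCODE vM1 annotation of NCBIM37, and rows sharing a symbol were summed. log2(FPKM + 1) of 16286 symbols with a mean of at least 1 FPKM was tested with limma 3.58.1 (R 4.3.3; lmFit, eBayes with trend, two-sided) with Benjamini-Hochberg adjustment at 0.05. The scale understates changes of low genes. Exact two-sided permutation tests over 10 splits compared log2 ratios. The fit was tested on simulated data. Depth was estimated from FPKM steps in genes with 1 transcript, where 97.0% to 97.7% of values came out whole within 0.1. Python 3.11.15 was used elsewhere.

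The 9 genes and all lists were chosen with earlier results of these data known. Of each pathway list, the genes with the lowest and highest log2 fold change were named, and for Cav1, Mfsd2a and Plvap the 3 nearest profiles. Of the 9, 7 had an entry in the RefSeq promoter table. No 2 mice shared identical values above 0, and p-values measure the spread between these 5 mice. Alternatives were a pseudocount of 0.1, no filter or a filter at 5 FPKM, TPM, scaling to the protein-coding sum, median-ratio scaling and endothelial centring. Further ones were a constant prior variance, the replicate block and each mouse left out. For the ratios to endothelial markers, Pecam1 and Cdh5 alone also served as the divisor.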

Additional observations from a re-analysis of the deposited data

How the results depend on the processing

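None of the 9 genes was called under any alternative that kept both Ins2-AKITA mice, with a smallest limma adjusted p of 0.268 as TPM and 0.603 otherwise. The pathway lists had no call with no filter, with the replicate block or with a WT mouse left out. TPM, the other scalings, the filter at 5 FPKM, the pseudocount of 0.1 and the constant prior variance were not run on the lists. The count of all genes called lower, 4, was 2 with no filter, 2 with the filter at 5 FPKM, 30 as TPM, 2 with a constant prior variance and 2 to 10 with a mouse left out. The count called higher, 0, was 58 as TPM, 1 with a constant prior variance and 0 to 10 with a mouse left out. As TPM, where the median of all genes moved to 1.07, the median of the 9 genes was 1.25, and the log2 fold change turned positive for Cav1 (1.25), Ptrf (1.46), Sdpr (1.25), Prkcdbp (1.12), Ehd2 (0.87), Mfsd2a (1.13), Plvap (0.90) and Dnm2 (1.33). After endothelial centring (all-gene median 0.38) the median of the 9 was 0.21, and it turned positive for Cav1 (0.23), Ptrf (0.28), Sdpr (0.33), Prkcdbp (0.12), Mfsd2a (0.077), Plvap (0.21) and Dnm2 (0.12). With a mouse left out, the median of the 9 ran from -0.42 to 0.048, and the log2 fold change crossed 0 for Cav1 (-0.50 to 0.10), Ptrf (-0.34 to 0.06), Sdpr (-0.28 to 0.12), Mfsd2a (-0.69 to 0.046) and Plvap (-0.60 to 0.18). These reversals came without WT 1 for Mfsd2a, WT 1 or Ins2-AKITA 2 for Plvap, and WT 2 or Ins2-AKITA 2 for Cav1, Ptrf and Sdpr. Where an Ins2-AKITA mouse is left out, the lone one is assumed to vary like the WT mice. With the replicate block, in which WT 3 has no partner, no gene of the 9 was called and Mfsd2a came nearest (log2 fold change -0.69, limma adjusted p = 0.603). Same-numbered mice deviated with correlations of 0.051 and -0.034. With 2 Ins2-AKITA mice, their deviations from the group mean mirror each other, so these correlations cannot decide on pairing. The numbers were not taken to pair the mice. The cause of the changes was not tested. Depth limited Plvap and Prkcdbp most, with 11 to 25 and 14 to 64 fragments per mouse.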

Other observations

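The values of 4 further transcripts of the lists, named after their values were seen, are given here. Tfrc, the transferrin receptor, measured 13.2, 35.2 and 24 FPKM in WT 1, WT 2 and WT 3 and 27.2 and 22.5 FPKM in Ins2-AKITA 1 and Ins2-AKITA 2, so that WT 1 was lowest and WT 2 highest, as for Cav1 and Cav2. Kdr, a receptor for vascular endothelial growth factor, measured 14.1, 41.3, 22.9, 29.6 and 20.2 FPKM in the same order of mice, with the same mice at both ends. Murc (Cavin4), the cavin of muscle, went the other way and measured 6.59, 2.5, 1.35, 3.9 and 3 FPKM, highest in WT 1. Ehd1, an endosomal relative of Ehd2, measured 23, 19.5 and 22.9 FPKM in WT and 17.8 and 16.1 FPKM in Ins2-AKITA mice, with both Ins2-AKITA mice below all WT mice and a limma adjusted p of 0.896.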
